A study of Homo sapiens and Mus musculus with 16 samples.

Results

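The cullins and the adaptors that carry substrates to them were followed in RNA from purified P-bodies and from cytoplasm. Members were the genes whose symbols begin with CUL, FBXO, FBXL, FBXW or KLHL and end in a number (CUL also with A or B), which gave 104 of the 22286 genes of the human table and 95 of the 15881 genes of the mouse table. The human members were 8 cullins, 17 FBXL, 9 FBXW, 35 FBXO and 35 KLHL genes. The rule reads gene symbols alone, and 92 symbols occurred in both tables.

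Cullins are the scaffolds of the largest group of ubiquitin ligases. The far end of a cullin binds a RING protein (RBX1 or RNF7) that brings the ubiquitin-conjugating enzyme, and the near end binds a substrate receptor through a bridge: SKP1 and an F-box protein on CUL1, elongins B and C with a SOCS or VHL box protein on CUL2 and CUL5, a BTB protein such as a KLHL protein directly on CUL3, and DDB1 with a DCAF protein on CUL4A and CUL4B. The ligase is switched on when NEDD8, a ubiquitin-like protein, is joined to a lysine of the cullin, and switched off when the COP9 signalosome removes it. P-bodies are cytoplasmic condensates of RNA and protein that hold mRNAs that are not being translated.

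All cells carried LSM14A, a P-body protein, fused to GFP. HEK293T cells, a human embryonic kidney line, and mESC, mouse embryonic stem cells of the KH2 line, received the fusion by lentivirus under the EF1a promoter, and their total RNA was made into libraries by the Snap seq protocol. Liver bud progenitors and neurons at day 20 of differentiation came from 1 human embryonic stem line, UCLA4-LSM14a-GFP, and were sequenced from polyA RNA. Lysates were freed of nuclei and pelleted, the resuspended pellet was the cytoplasm, and P-bodies were sorted from it by GFP, so that the cytoplasm still held P-bodies. Each of the 4 cell types had 2 P-body and 2 cytoplasm libraries (16 libraries), no untreated line without the fusion was analysed here, and library kind and cell type cannot be told apart between HEK293T or mESC and the other 2. The study describes the 2 libraries of a group as biologically independent samples, and the labels do not say whether they came from separate cultures, so that p-values measure the spread between these libraries.

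The libraries held 6368953 to 17972284 counts, at which 3 counts correspond to 0.167 to 0.471 CPM (counts scaled to the library total), and the members took 0.223% to 0.515% of a library. Replicates were distinct libraries (the chi-square of their counts per gene was 2.01 to 21.1), and the neuron P-body pair was the least alike, with a Spearman correlation of 0.915 across genes against 0.962 to 0.988 in the other 7 groups. In the cytoplasm, 7 of 8 liver bud markers, 8 of 8 neuron markers and 6 of 6 mESC markers reached 5 CPM. The 4 pluripotency markers of the liver bud culture summed to 1179 to 1202 CPM in cytoplasm against 404 to 415 CPM for the 8 liver bud markers, and in P-bodies to 2370 to 2417 CPM against 212 to 224 CPM. In cytoplasm LIN28A (616 CPM) and L1TD1 (461 CPM) held most of the pluripotency sum, against 80.4 CPM for POU5F1 and 32.3 CPM for NANOG. APOB alone stood at 281 CPM among the liver bud markers there. The part of the pluripotency markers in the liver bud results was not tested. The 5 neural progenitor markers of the neuron culture summed to 1640 to 1687 CPM in cytoplasm and to 3329 to 3447 CPM in P-bodies, while the 8 neuron markers stood at 12240 to 12310 CPM and 8583 to 8717 CPM. In bulk samples, fewer cells of a type and less RNA per cell cannot be told apart.

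The mRNAs of the human cullins differ in the bases they use at the last position of their codons, and since the P-body values followed base composition (see the plot against last-codon-position GC), short stretches are shown here. The first set is the 15 codons around the NEDD8 acceptor, whose lysine is the tenth codon, in the 6 cullins where an arginine or glutamine, an isoleucine, valine or leucine, a methionine and a lysine followed each other once in the protein. CUL7 and CUL9 had no such match. Capitals mark the last base of each codon, the coordinates are those of hg38 with GENCODE 44, from the transcript with the longest coding part, and a stretch in 2 exons spans the intron between them.

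CUL1, chr7:148798672-148799313, plus strand, exons 20 and 21: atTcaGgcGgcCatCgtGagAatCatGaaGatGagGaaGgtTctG
CUL2, chr10:35011872-35011916, minus strand, exon 20: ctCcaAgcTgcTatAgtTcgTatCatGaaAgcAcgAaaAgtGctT
CUL3, chr2:224478224-224478268, minus strand, exon 15: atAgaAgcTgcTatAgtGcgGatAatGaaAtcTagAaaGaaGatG
CUL4A, chr13:113260661-113260705, plus strand, exon 19: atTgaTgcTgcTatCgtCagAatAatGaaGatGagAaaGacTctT
CUL4B, chrX:120530156-120530200, minus strand, exon 22: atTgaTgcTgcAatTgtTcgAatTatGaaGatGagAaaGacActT
CUL5, chr11:108098524-108104228, plus strand, exons 18 and 19: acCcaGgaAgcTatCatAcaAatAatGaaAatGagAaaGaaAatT

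In this stretch 12 of 15 last bases were G or C in CUL1, 6 of 15 in CUL3, CUL4A and CUL5, and 4 of 15 in CUL2 and CUL4B. The second set is the 20 codons at the middle of the coding sequence, shown because it was placed by position alone and covers CUL7 and CUL9 (CUL3 is not shown in it).

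CUL1, chr7:148783834-148783973, plus strand, exons 10 and 11: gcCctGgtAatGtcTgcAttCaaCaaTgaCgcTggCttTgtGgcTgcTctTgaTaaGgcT
CUL2, chr10:35032486-35033216, minus strand, exons 11 and 12: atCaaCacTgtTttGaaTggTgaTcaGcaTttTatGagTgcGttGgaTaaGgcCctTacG
CUL4A, chr13:113243040-113243099, plus strand, exon 11: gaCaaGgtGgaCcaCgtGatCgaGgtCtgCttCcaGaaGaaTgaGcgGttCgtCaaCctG
CUL4B, chrX:120542976-120543728, minus strand, exons 11 and 12: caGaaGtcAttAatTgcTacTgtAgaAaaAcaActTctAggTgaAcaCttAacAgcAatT
CUL5, chr11:108078203-108088548, plus strand, exons 11 and 12: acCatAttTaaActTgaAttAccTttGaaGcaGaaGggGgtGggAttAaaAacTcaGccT
CUL7, chr6:43046367-43046529, minus strand, exons 11 and 12: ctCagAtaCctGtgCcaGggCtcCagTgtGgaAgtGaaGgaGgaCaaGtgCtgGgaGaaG
CUL9, chr6:43202813-43203159, plus strand, exons 17 and 18: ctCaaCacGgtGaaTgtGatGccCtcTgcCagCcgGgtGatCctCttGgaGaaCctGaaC

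Here 19 of 20 last bases were G or C in CUL4A, 18 in CUL9 and 17 in CUL7, against 10 in CUL2, 9 in CUL1, 8 in CUL5 and 3 in CUL4B. Over the whole coding sequence of these transcripts the share was 71.3% in CUL7, 68.9% in CUL9, 61.3% in CUL4A, 48.8% in CUL1, 39.7% in CUL4B, 37.8% in CUL2, 36.2% in CUL3 and 32.2% in CUL5. The stretch around the acceptor of CUL1 thus had a larger share of G or C at last codon positions than its whole coding sequence.

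CUL1, CUL3 and CUL5 mRNAs were enriched in P-bodies over cytoplasm in all 4 cell types, and CUL7 mRNA was depleted in all 4. Values below are CPM scaled by the TMM factors of each comparison, and a change is the log2 ratio of P-body to cytoplasm ± SE, tested by edgeR's quasi-likelihood test with Benjamini-Hochberg adjustment over all genes and called at an adjusted p under 0.05. CUL5, the scaffold of the SOCS box ligases, rose from 88.9 and 81.4 CPM in the cytoplasm of HEK293T to 113 and 114 CPM in P-bodies (0.42 ± 0.08, adjusted p = 3.14e-06). In liver bud progenitors it rose from 58.4 and 47.7 CPM to 112 and 110 CPM (1.07 ± 0.09, adjusted p = 2.38e-16). In neurons it rose from 17.5 and 19.0 CPM to 41.3 and 52.1 CPM (1.36 ± 0.20, adjusted p = 0.000163). In each of these cell types both P-body libraries lay above both cytoplasm libraries. The same held in mESC, where Cul5 rose from 123 and 129 CPM to 294 and 286 CPM (1.20 ± 0.05, adjusted p = 5.64e-16).

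CUL3, the scaffold for the KLHL proteins, rose from 107 and 92.3 CPM to 148 and 160 CPM in HEK293T (0.63 ± 0.07, adjusted p = 4.67e-11). It rose in liver bud progenitors from 95.0 and 92.2 CPM to 174 and 169 CPM (0.87 ± 0.08, adjusted p = 4.22e-16). In neurons it rose from 65.9 and 70.9 CPM to 119 and 135 CPM (0.90 ± 0.12, adjusted p = 9.19e-05), and in mESC from 164 and 168 CPM to 269 and 271 CPM (0.70 ± 0.05, adjusted p = 7.46e-12). The fractions of CUL3 did not overlap in any cell type. CUL1, the scaffold for the F-box proteins, rose from 174 and 169 CPM to 240 and 248 CPM in HEK293T (0.51 ± 0.06) and from 53.6 and 57.9 CPM to 82.4 and 79.3 CPM in liver bud progenitors (0.53 ± 0.09). It rose from 40.6 and 46.6 CPM to 73.5 and 74.2 CPM in neurons (0.76 ± 0.14, adjusted p = 0.00133) and from 92.0 and 90.2 CPM to 160 and 152 CPM in mESC (0.78 ± 0.06).

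CUL2, which carries the VHL tumour suppressor, was enriched in 3 of the 4 cell types. It rose from 51.7 and 52.4 CPM to 94.5 and 92.3 CPM in liver bud progenitors (0.84 ± 0.09), from 24.5 and 34.5 CPM to 50.7 and 51.8 CPM in neurons (0.80 ± 0.19) and from 98.6 and 93.9 CPM to 174 and 168 CPM in mESC (0.83 ± 0.06). In HEK293T it was 63.4 and 51.8 CPM in cytoplasm and 64.6 and 64.9 CPM in P-bodies, and its 0.17 ± 0.09 did not pass the test (adjusted p = 0.156). The neuron call was lost when 1 library was left out.

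CUL4A and CUL4B, close relatives that both carry DDB1, did not share their calls. CUL4B rose from 142 and 131 CPM in the cytoplasm of liver bud progenitors to 326 and 308 CPM in their P-bodies (1.22 ± 0.07, adjusted p = 5.62e-25). It was enriched in HEK293T, from 71.6 and 59.2 CPM to 77.6 and 76.3 CPM (0.23 ± 0.09), a call lost on leaving out any of 3 libraries. In mESC Cul4b rose from 114 and 121 CPM to 150 and 146 CPM (0.33 ± 0.06), a value that was -0.07 with scaling by library size alone. In neurons CUL4B was 42.1 and 46.3 CPM in cytoplasm and 60.3 and 56.8 CPM in P-bodies (0.41 ± 0.15, adjusted p = 0.0594). CUL4A was not called in HEK293T (-0.27 ± 0.13), liver bud progenitors (0.16 ± 0.10) or neurons (-0.18 ± 0.22), and Cul4a was depleted in mESC, from 38.8 and 46.5 CPM to 32.1 and 37.2 CPM (-0.30 ± 0.11, adjusted p = 0.0271). The mESC call was lost on leaving out either of 2 libraries. The difference between the paralogs was not tested.

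CUL7, the scaffold that works with FBXW8 and is mutated in 3-M syndrome, fell from 76.1 and 80.3 CPM in the cytoplasm of liver bud progenitors to 28.5 and 26.1 CPM in P-bodies (-1.52 ± 0.11, adjusted p = 3.62e-20). In neurons it fell from 147 and 129 CPM to 55.9 and 56.5 CPM (-1.30 ± 0.12), in HEK293T from 14.1 and 16.1 CPM to 8.78 and 8.12 CPM (-0.84 ± 0.17) and in mESC from 94.2 and 104 CPM to 65.3 and 68.9 CPM (-0.56 ± 0.07). CUL9, known for binding p53 in the cytoplasm, fell from 23.3 and 19.2 CPM to 8.41 and 6.32 CPM in liver bud progenitors (-1.53 ± 0.20) and from 56.3 and 54.2 CPM to 18.3 and 19.8 CPM in neurons (-1.53 ± 0.17). In HEK293T it fell from 6.35 and 6.72 CPM to 4.25 and 4.06 CPM (-0.65 ± 0.24, adjusted p = 0.0192), a call lost on leaving out any of the 4 libraries. In mESC Cul9 was 3.29 and 4.77 CPM in cytoplasm and 4.03 and 2.95 CPM in P-bodies, so that the fractions overlapped (-0.20 ± 0.30, adjusted p = 0.612).

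**Figure D1:**
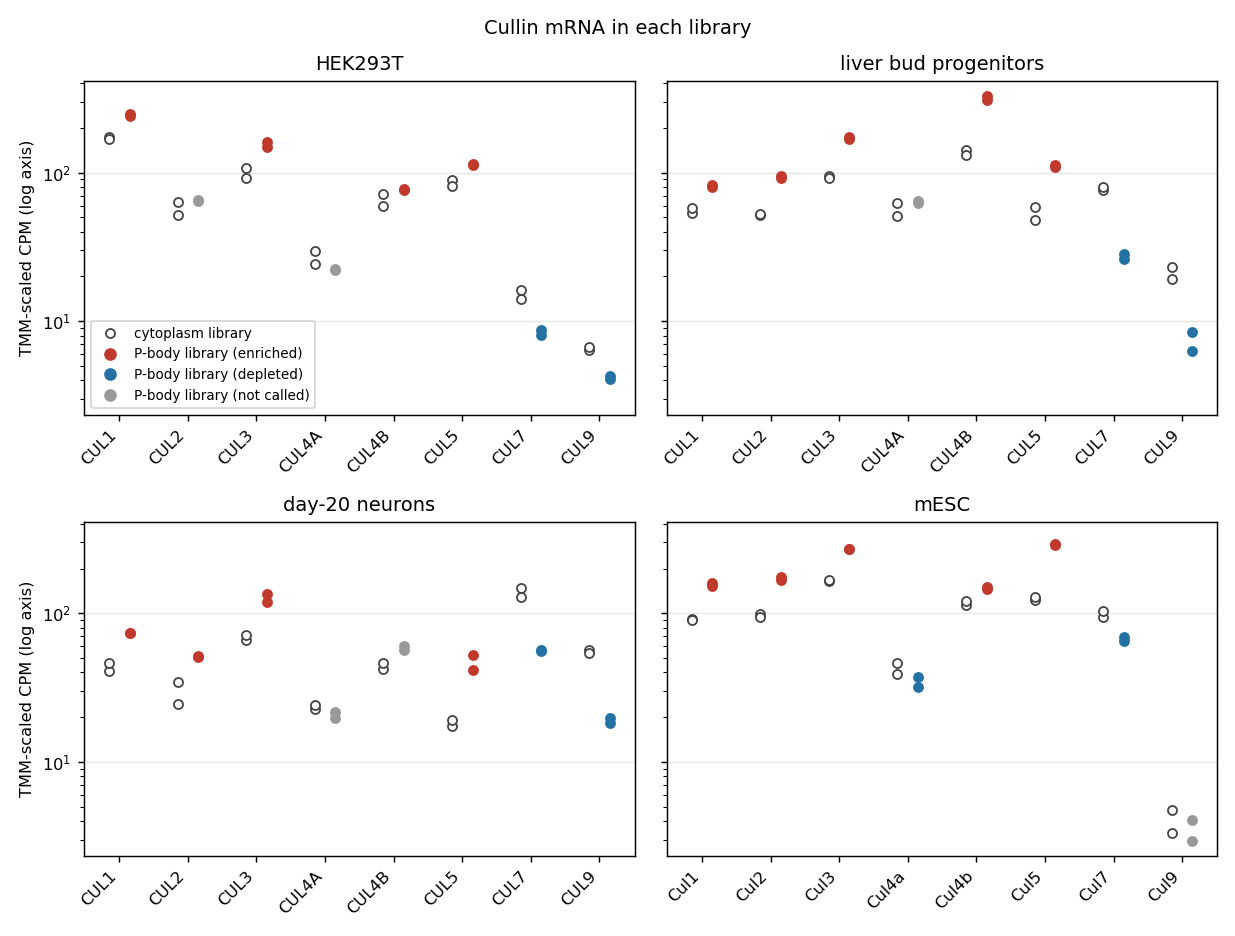
TMM-scaled CPM (log axis) of the 8 cullins in every library of HEK293T, liver bud progenitors, neurons and mESC; open points are cytoplasm libraries and filled points P-body libraries, coloured by call. The P-body points of CUL1, CUL3 and CUL5 lie above the cytoplasm points in every panel and those of CUL7 lie below.

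In HEK293T, 77 of the 104 members reached a mean of 1 CPM over the 4 libraries, and 32 of them were enriched in P-bodies and 25 depleted at an adjusted p under 0.05. Among all genes of at least 1 CPM, 32.0% were enriched and 38.0% depleted, against 41.6% and 32.5% of the members. The 25 depleted include FBXW9, which reached 1 CPM in cytoplasm alone. The median change was 0.04 in the members and -0.13 in all genes. Scaling by library size alone moved all genes by -0.13, the members' counts to 28 enriched and 35 depleted, and their median to -0.08. The depleted members numbered 14 with DESeq2 and 11 when the 12 human libraries were fitted together.

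In liver bud progenitors, 35 of 86 members were enriched, where 32.3% of all genes were, and 12 were depleted, where 24.6% of all genes were. The median change was 0.20 in the members and 0.05 in all genes. With scaling by library size alone, which moved all genes by -0.19, the counts were 31 and 18. In neurons, 27 of 89 members were enriched (19.9% of all genes) and 16 depleted (21.1% of all genes). Their median was 0.22 against -0.12 in all genes. The 27 include KLHL6, KLHL34 and KLHL38, which reached 1 CPM in P-bodies alone. The neuron counts were 17 and 9 without the first cytoplasm library. In mESC, 31 of 82 members were enriched (33.8% of all genes) and 10 depleted (20.2% of all genes), with a median of 0.19 against 0.04. With scaling by library size alone, which moved all mESC genes by -0.40, 19 members were enriched and 26 depleted. Without the first P-body library 6 mESC members were depleted, as many as with DESeq2.

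The 27, 18, 15 and 13 members under 1 CPM in HEK293T, liver bud progenitors, neurons and mESC were fitted too, and 0 of them passed by edgeR or by DESeq2, with 0, 0, 2 and 1 at an unadjusted edgeR p under 0.05. Most of the rest reached 1 CPM in both fractions. FBXW9 in HEK293T, FBXL6 in liver bud progenitors and Fbxl16, Fbxl21 and Fbxo36 in mESC passed through the cytoplasm alone. KLHL6, KLHL10, KLHL34 and KLHL38 in neurons passed through P-bodies alone.

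Of the 76 members at 1 CPM or more in all 3 human cell types, 17 (22.4%) were enriched and 6 (7.89%) depleted in all 3, where 15.5% and 10.6% of 11695 genes were. With mESC, 72 members were measured in all 4 cell types, of which 15 (20.8%) were enriched and 3 (4.17%) depleted in all 4, where 1288 (14%) and 661 (7.21%) of the 9169 genes matched by symbol and measured in all 4 were. Among the 15 were CUL1, CUL3, CUL5, FBXO5, FBXO28, FBXO30, FBXO34, FBXO38, FBXO48, FBXW7, KLHL2, KLHL20, KLHL24 and KLHL28, and the 3 were CUL7, FBXL18 and FBXL19.

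By family, the FBXW genes, whose proteins read substrates with WD40 repeats, had the lowest medians. They stood at -1.01 in HEK293T (2 enriched and 4 depleted of 7), -0.04 in liver bud progenitors (2 and 1 of 7), -0.61 in neurons (1 and 1 of 7) and -0.39 in mESC (1 and 3 of 8). The 4 depleted in HEK293T and the median there include FBXW9 (-1.63), which passed the filter through the cytoplasm alone, the fraction where it was high. The FBXL genes, with leucine-rich repeats, had medians of -0.30, -0.03, 0.01 and -0.12, with 3 and 3 of 10, 3 and 4 of 15, 2 and 2 of 14 and 4 and 4 of 14 enriched and depleted. The liver bud median includes FBXL6 (-1.43) and the mESC median Fbxl16 (-1.13) and Fbxl21 (-1.21). None of these was called, and they passed the filter only through the cytoplasm, where they were high, so the sign of these small medians is not to be read as a trait. The FBXO genes, with other domains, had medians of -0.04, 0.40, 0.31 and 0.32, with 11 and 9 of 26, 13 and 3 of 28, 9 and 6 of 27 and 12 and 1 of 28. The mESC FBXO median includes Fbxo36 (-1.07, not called), which also passed through the cytoplasm alone. The KLHL genes had medians of 0.31, 0.29, 0.52 and 0.30, with 12 and 7 of 26, 12 and 2 of 28, 11 and 5 of 33 and 9 and 0 of 24, where no depleted KLHL gene in mESC had an unadjusted p under 0.05 by edgeR and DESeq2 called 0 too. The neuron KLHL count and median include KLHL6, KLHL10, KLHL34 and KLHL38, which passed the filter through P-bodies alone. KLHL6, KLHL34 and KLHL38 were among the 11 enriched there. In mESC the medians of the FBXO and KLHL genes were -0.08 and -0.11 with scaling by library size alone. The other F-box and KLHL medians given here kept their sign under it. The background of these counts is the share of all genes of at least 1 CPM. It was 32.0% enriched and 38.0% depleted in HEK293T and 32.3% and 24.6% in liver bud progenitors. In neurons it was 19.9% and 21.1%, and in mESC 33.8% and 20.2%. The medians of all genes were -0.13, 0.05, -0.12 and 0.04 in the same order.

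**Figure D2:**
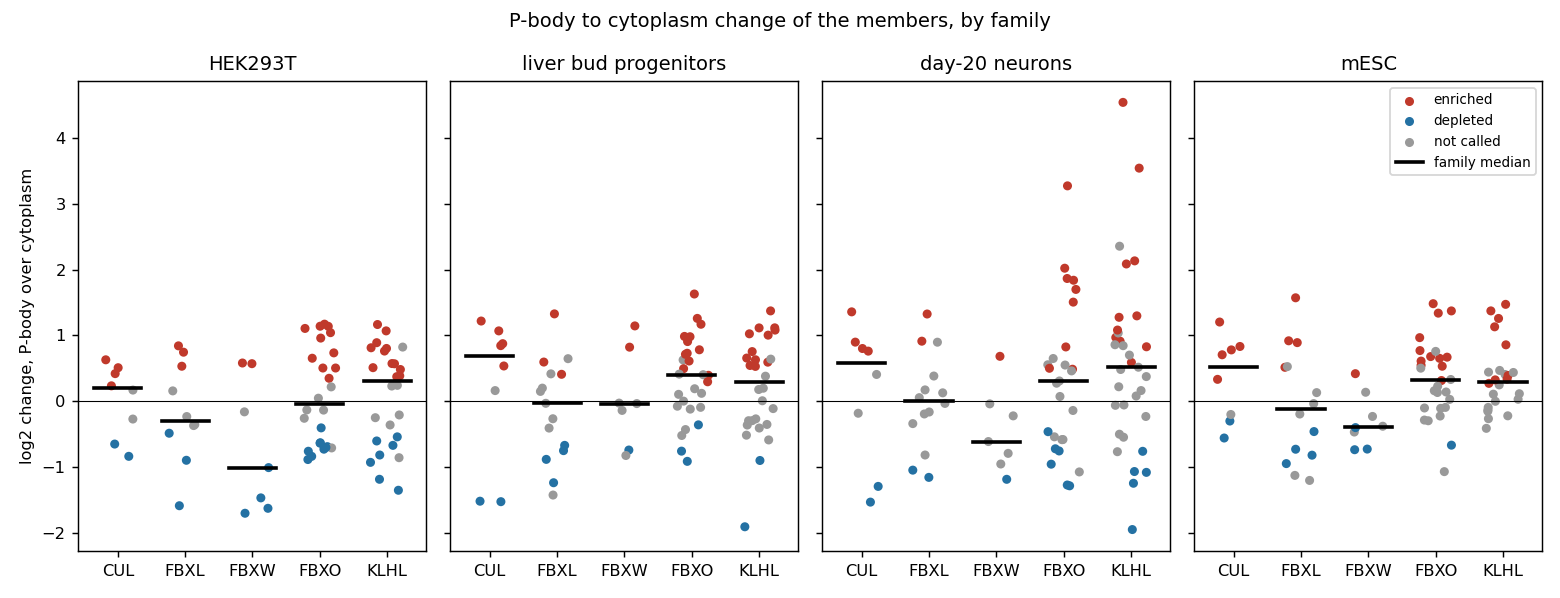
Log2 change from cytoplasm to P-body of every member of at least 1 CPM, by family and cell type; each point is a gene, coloured by its call, and bars are family medians. The FBXW medians lie at or below 0 in every panel, from -1.01 in HEK293T to -0.04 in liver bud progenitors. The HEK293T FBXW median includes FBXW9, which passed the filter through the cytoplasm alone.

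FBXO5 encodes EMI1, the inhibitor that holds back the anaphase-promoting complex until mitosis, and among members of at least 5 CPM it had the largest called change in liver bud progenitors and in neurons. It rose from 495 and 474 CPM in the cytoplasm of HEK293T to 1068 and 1062 CPM in P-bodies (1.14 ± 0.05, adjusted p = 4.13e-28). It rose in liver bud progenitors from 59.7 and 57.2 CPM to 188 and 174 CPM (1.63 ± 0.08, adjusted p = 2.36e-27). In neurons it rose from 8.03 and 9.10 CPM to 83.0 and 82.6 CPM (3.27 ± 0.18, adjusted p = 3.01e-08), a 9.66-fold difference. No fractions overlapped, and in mESC Fbxo5 rose from 110 and 115 CPM to 290 and 280 CPM (1.34 ± 0.05). In the neuron culture the sum of the 5 neural progenitor markers was also higher in P-bodies, as given above (4 of the 5 were higher there and NES was lower). Most of that sum came from MKI67 (1104 CPM in cytoplasm and 1845 CPM in P-bodies) and TOP2A (196 and 814 CPM). The part of the 5 markers in the FBXO5 result was not tested.

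FBXW7, the receptor that marks cyclin E, MYC and NOTCH for destruction, was enriched in all 4 cell types. It rose from 128 and 129 CPM to 282 and 285 CPM in liver bud progenitors (1.14 ± 0.07). Its change was 0.57 ± 0.09 in HEK293T, 0.68 ± 0.15 in neurons and 0.42 ± 0.06 in mESC. FBXW11, which like BTRC recognises phosphorylated beta-catenin, was enriched in HEK293T (0.58 ± 0.07) and liver bud progenitors (0.82 ± 0.08). In neurons FBXW11 was 63.9 and 70.8 CPM in cytoplasm and 72.6 and 58.3 CPM in P-bodies, which overlapped (-0.04 ± 0.15), and its 0.13 ± 0.07 in mESC did not pass the test (adjusted p = 0.138). Under scaling by library size alone Fbxw11 was depleted in mESC (-0.27, adjusted p = 0.00228).

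FBXL5, the iron sensor that targets IRP2, was enriched by 0.53 ± 0.11, 0.41 ± 0.12 and 0.89 ± 0.11 in HEK293T, liver bud progenitors and mESC, and was 0.13 ± 0.21 in neurons (adjusted p = 0.681). FBXL20, a synaptic F-box protein that acts on the presynaptic protein RIM1, was enriched in HEK293T (0.84 ± 0.08) and neurons (0.91 ± 0.12), and its 0.15 ± 0.09 in liver bud progenitors and 0.13 ± 0.10 in mESC did not pass the test. Under scaling by library size alone Fbxl20 was depleted in mESC (-0.27, adjusted p = 0.0243).

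FBXO28, FBXO30, FBXO34 and FBXO38 were enriched in every cell type. FBXO38 rose from 89.4 and 86.8 CPM to 201 and 195 CPM in HEK293T (1.17 ± 0.07) and from 150 and 130 CPM to 269 and 282 CPM in liver bud progenitors (0.98 ± 0.07). It rose from 88.4 and 79.5 CPM to 218 and 259 CPM in neurons (1.5 ± 0.12) and from 97.4 and 100 CPM to 156 and 145 CPM in mESC (0.61 ± 0.06). None of these fractions overlapped. FBXO30 changed by 0.73 ± 0.07, 1.26 ± 0.09, 1.84 ± 0.17 and 1.37 ± 0.05 in HEK293T, liver bud progenitors, neurons and mESC. In the same order FBXO34 changed by 1.1 ± 0.08, 0.78 ± 0.12, 1.86 ± 0.18 and 0.68 ± 0.12, with 18.8% of its human exonic bases under ATG14 on the other strand (if counting did not use strand, the reads of such a pair cannot be told apart), and FBXO28 by 0.35 ± 0.07, 0.91 ± 0.10, 0.82 ± 0.27 and 0.96 ± 0.08.

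FBXO48 was called enriched in neurons (2.02 ± 0.57, adjusted p = 0.0176) although its libraries overlapped, at 13.3 and 8.20 CPM in cytoplasm and 12.4 and 74.9 CPM in P-bodies. The second P-body library alone was high, and the call was lost when 1 library was left out. In the other cell types its fractions did not overlap, with changes of 1.14 ± 0.08 in HEK293T, 0.71 ± 0.10 in liver bud progenitors and 1.48 ± 0.20 in mESC. FBXO32 (atrogin-1, known from muscle wasting) had the same high library in neurons, with 3.87 and 2.50 CPM in cytoplasm and 5.07 and 15.6 CPM in P-bodies (1.70 ± 0.53). It was enriched by 0.96 ± 0.15 in HEK293T, and its 0.19 ± 0.31 in liver bud progenitors did not pass the test. FBXO45, known from the developing nervous system, was enriched in liver bud progenitors (0.98 ± 0.15) and stood at 0.22 ± 0.13, 0.55 ± 0.29 and 0.13 ± 0.09 in HEK293T, neurons and mESC, which did not pass the test. Under scaling by library size alone Fbxo45 was depleted in mESC (-0.27, adjusted p = 0.0148).

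Fbxo15, an F-box gene known as a marker of mouse embryonic stem cells, had the highest mean CPM of all members in mESC. It rose from 226 and 223 CPM in cytoplasm to 388 and 376 CPM in P-bodies (0.77 ± 0.04, adjusted p = 2.73e-13). In the 12 human libraries FBXO15 was below 1 CPM.

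Depleted F-box mRNAs included FBXL18 and FBXL19 in every cell type. FBXL19, which also binds CpG islands, fell from 11.6 and 9.36 CPM to 3.09 and 3.83 CPM in HEK293T (-1.59 ± 0.22) and from 16.1 and 16.4 CPM to 10.4 and 7.25 CPM in liver bud progenitors (-0.89 ± 0.21). It fell from 35.2 and 26.6 CPM to 13.1 and 14.5 CPM in neurons (-1.16 ± 0.23) and from 17.7 and 19.3 CPM to 8.75 and 10.4 CPM in mESC (-0.95 ± 0.17). FBXL18 changed by -0.90 ± 0.13, -0.75 ± 0.13, -1.05 ± 0.19 and -0.82 ± 0.20. FBXW5 fell from 13.3 and 12.9 CPM to 4.25 and 3.77 CPM in HEK293T (-1.70 ± 0.20), which was the lowest value among the members there. FBXW8, the receptor paired with CUL7, fell from 57.0 and 64.3 CPM to 38.8 and 34.3 CPM in mESC (-0.73 ± 0.10), was also depleted in HEK293T (-1.01 ± 0.20) and neurons (-1.19 ± 0.26), and overlapped between fractions in liver bud progenitors, at 36.2 and 34.1 CPM and 34.3 and 34.5 CPM (-0.03 ± 0.12).

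The depleted members of smallest p in liver bud progenitors also held FBXO10, whose protein targets BCL2, which fell from 31.9 and 31.4 CPM to 20.9 and 16.6 CPM (-0.76 ± 0.15). With it were FBXL2 (-1.24 ± 0.30), FBXL7 (-0.67 ± 0.17) and FBXO41 (-0.92 ± 0.20). In neurons FBXO31, a receptor for cyclin D1, fell from 25.6 and 21.8 CPM to 10.6 and 8.999 CPM (-1.27 ± 0.26) and FBXO25 changed by -0.96 ± 0.16. The FBXO31 call was lost when 1 library was left out. In mESC Fbxl14 changed by -0.46 ± 0.13, Fbxo6, which binds glycoproteins, by -0.67 ± 0.17 and Fbxw5 by -0.40 ± 0.16.

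The KLHL proteins are BTB adaptors of CUL3. KLHL20, which targets PML and DAPK, rose from 75.0 and 73.2 CPM to 157 and 154 CPM in HEK293T (1.07 ± 0.07). It changed by 0.91 ± 0.16 in neurons, 0.65 ± 0.14 in liver bud progenitors and 0.86 ± 0.07 in mESC. KLHL24, known from keratin turnover in skin, rose from 143 and 152 CPM to 388 and 377 CPM in mESC (1.37 ± 0.05), and was enriched by 0.57 ± 0.09, 1.00 ± 0.08 and 0.83 ± 0.13 in HEK293T, liver bud progenitors and neurons. KLHL28 was enriched by 1.16 ± 0.07, 1.11 ± 0.09, 1.30 ± 0.18 and 1.26 ± 0.11 in the 4 cell types, in the order HEK293T, liver bud progenitors, neurons and mESC. KLHL2, which targets WNK kinases, changed by 0.38 ± 0.14, 1.02 ± 0.17, 0.97 ± 0.34 and 0.39 ± 0.12, and the last of these was -0.01 with scaling by library size alone.

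KLHL5 rose from 94.1 and 90.9 CPM to 245 and 234 CPM in liver bud progenitors (1.37 ± 0.07), and KLHL15, a receptor for a regulatory subunit of PP2A, from 153 and 143 CPM to 320 and 322 CPM (1.11 ± 0.07). Klhl5 did not share this in mESC, where it was -0.0024 ± 0.23. KLHL8 rose from 10.01 and 9.30 CPM to 46.0 and 38.8 CPM in neurons (2.13 ± 0.22, adjusted p = 7.6e-06). KLHL42 was enriched by 0.48 ± 0.09 in HEK293T, 0.54 ± 0.09 in liver bud progenitors and 0.27 ± 0.10 in mESC (-0.13 with scaling by library size alone), and overlapped between fractions in neurons (-0.06 ± 0.12).

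Among the depleted KLHL mRNAs, KLHL22, whose protein acts on PLK1, fell from 19.9 and 16.0 CPM to 3.09 and 6.13 CPM in neurons (-1.95 ± 0.36, adjusted p = 0.00121) and was depleted by -0.93 ± 0.22 in HEK293T. Its -0.59 ± 0.35 in liver bud progenitors and -0.13 ± 0.07 in mESC did not pass the test. KLHL1, an actin-binding protein of the brain, fell from 80.3 and 80.6 CPM to 30.4 and 37.2 CPM in neurons (-1.25 ± 0.15), and exons of ATXN8OS on the other strand cover 22.0% of its exonic bases. KLHL21, which acts in cytokinesis, fell from 16.6 and 15.1 CPM to 6.72 and 7.14 CPM in HEK293T (-1.19 ± 0.18). KLHL12, whose protein acts on COPII coats, was depleted in HEK293T (-0.61 ± 0.16), and its 0.01 ± 0.17, -0.50 ± 0.26 and 0.41 ± 0.17 in liver bud progenitors, neurons and mESC did not pass the test.

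KLHL9 and KLHL13, which work together with CUL3 to remove Aurora B from mitotic chromosomes, were called in opposite directions in different cell types. KLHL9 fell from 83.0 and 79.0 CPM to 48.3 and 53.2 CPM in HEK293T (-0.67 ± 0.09), and KLHL13 from 16.3 and 15.7 CPM to 11.0 and 11.0 CPM (-0.54 ± 0.16). In mESC Klhl9 and Klhl13 were enriched by 0.32 ± 0.13 and 0.34 ± 0.10, values that were -0.08 and -0.07 with scaling by library size alone, and both calls were lost on leaving out either of 2 libraries. KLHL13 was also enriched in neurons (0.59 ± 0.14). FBXO11, which targets BCL6, was depleted in HEK293T (-0.41 ± 0.13) and enriched in liver bud progenitors (0.39 ± 0.11), neurons (0.48 ± 0.14) and mESC (0.65 ± 0.07), with 31.9% of its human exonic bases under MSH6 on the other strand. FBXO7, FBXO22 and FBXO25 were the other 3 members with calls in both directions. Leaving out 1 library also ended the calls of FBXO11 and KLHL2 in HEK293T, of FBXL5 and FBXO11 in liver bud progenitors, of FBXL19, FBXO11, FBXO28, FBXO32, KLHL2 and KLHL13 in neurons, and of Fbxl14, Fbxw5, Klhl2 and Klhl42 in mESC. Between HEK293T and the polyA libraries, cell type and library kind cannot be told apart.

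Members of low count had some of the largest changes in neurons, and 3 of them are given here although they were picked after their values were seen. KLHL6 had 2 and 3 counts in the cytoplasm libraries and 36 and 20 in the P-body libraries (3.54 ± 0.95). KLHL38 had 2 and 0 counts against 7 and 43 (4.54 ± 1.35), so that the second P-body library held most of its reads. KLHL34 had 10 and 9 counts against 34 and 42 (2.08 ± 0.66). These 3 passed the filter only through the fraction where they were high.

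The rest of the machinery was taken from 8 lists of 142 genes with other names. In HEK293T, 50 of 132 measured genes of these lists were enriched and 56 depleted. In liver bud progenitors 65 of 134 were enriched and 25 depleted, in neurons 28 of 135 and 41, and in mESC 51 of 129 and 22. The shares of all genes given above are the background of these counts. In mESC the counts were 31 and 62 with scaling by library size alone. In neurons 22 were depleted without the first cytoplasm library, 26 without the second, and 62 when the 12 human libraries were fitted together.

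The RING subunits and substrate bridges were depleted in HEK293T without exception: 0 of 9 enriched and 9 of 9 depleted, with a median of -1.01 (0 enriched also at an unadjusted p under 0.05 and by DESeq2). DDB1, the bridge of CUL4, was depleted in all 4 cell types (-1.82 ± 0.07, -0.73 ± 0.07, -0.88 ± 0.11 and -0.50 ± 0.04). RBX1, the RING subunit of most cullins, was depleted in HEK293T (-1.78 ± 0.17), enriched in liver bud progenitors (1.57 ± 0.27), and not called in neurons (-0.26 ± 0.43) or mESC (-0.35 ± 0.16). SKP1, the bridge of CUL1, was depleted in HEK293T (-0.38 ± 0.11), enriched in liver bud progenitors (0.87 ± 0.10) and not called in neurons (-0.14 ± 0.17), and was not analysed here in mESC. In liver bud progenitors 4 of 9 genes of the list were enriched and 2 depleted, in neurons 0 and 5 of 9 (0 enriched at an unadjusted p under 0.05 and by DESeq2), and in mESC 1 and 3 of 8.

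Genes of the neddylation step were more often enriched than depleted in each cell type. The counts were 6 and 3 of 11 in HEK293T and 7 and 0 of 11 in liver bud progenitors (1 depleted at an unadjusted edgeR p under 0.05, 0 by DESeq2). They were 3 and 1 of 11 in neurons and 8 and 1 of 11 in mESC. All genes were also more often enriched than depleted in liver bud progenitors (32.3% and 24.6%) and mESC (33.8% and 20.2%). In HEK293T (32.0% and 38.0%) and neurons (19.9% and 21.1%) all genes were more often depleted. DCUN1D1, a co-E3 of NEDD8 transfer, changed by 1.05, 1.43, 1.53 and 1.51, and UBA3, the catalytic subunit of the NEDD8-activating enzyme, by 0.90, 1.34, 1.93 and 1.29, all called. UBE2M, the NEDD8 conjugating enzyme of RBX1, was depleted in HEK293T, neurons and mESC (-1.09, -0.90 and -0.65). NEDD8 itself was depleted in HEK293T (-0.59 ± 0.10) and enriched in liver bud progenitors (0.42 ± 0.15), and was -0.38 ± 0.20 in neurons and -0.25 ± 0.17 in mESC.

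Genes of the COP9 signalosome and of cullin exchange were depleted 10 times and enriched 2 times among 14 in HEK293T. In liver bud progenitors 9 of 14 were enriched and 3 depleted, in neurons 2 and 4, and in mESC 3 and 6. COPS2 was enriched in each cell type (1.08, 1.43, 2.14 and 1.83), while COPS5, the subunit that cuts NEDD8 off, was depleted in HEK293T (-0.88 ± 0.16) and enriched in liver bud progenitors (0.55 ± 0.22), and its -1.06 ± 0.42 in neurons and 0.10 ± 0.09 in mESC did not pass the test. CAND1, the exchange factor, was depleted in HEK293T (-0.45 ± 0.06), neurons (-0.57 ± 0.10) and mESC (-0.23 ± 0.05) and enriched in liver bud progenitors (0.35 ± 0.06).

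Among the receptors with other names, BTRC was enriched in all 4 cell types (1.23 ± 0.05, 0.30 ± 0.08, 1.07 ± 0.09 and 0.54 ± 0.07). SKP2, the receptor for the cell cycle inhibitor p27, was enriched in HEK293T (0.47 ± 0.07), liver bud progenitors (0.67 ± 0.09) and mESC (0.48 ± 0.10), and was 0.35 ± 0.20 in neurons. SPOP, a BTB adaptor of CUL3, was enriched in all 4 (1.14 ± 0.08, 0.98 ± 0.17, 1.05 ± 0.19 and 0.55 ± 0.16). KEAP1, the BTB adaptor for NRF2, was depleted in HEK293T (-1.33 ± 0.22), neurons (-1.59 ± 0.38) and mESC (-0.74 ± 0.17) and was 0.12 ± 0.25 in liver bud progenitors. The other BTB adaptors, SOCS box adaptors and DCAF receptors split as 12 and 10 of 29, 11 and 9 of 27 and 13 and 7 of 24 in HEK293T. The liver bud split was 12 and 6 of 29, 13 and 5 of 28 and 12 and 4 of 25. In neurons they split as 8 and 8 of 29, 5 and 9 of 28 and 6 and 9 of 26, and in mESC as 13 and 5 of 29, 11 and 2 of 28 and 9 and 3 of 23. Ubiquitin-conjugating partners had 4 and 6 of 12 in HEK293T, 5 and 2 of 12 in liver bud progenitors, 3 and 4 of 12 in neurons and 4 and 2 of 10 in mESC. F-box genes with other names had 2 and 2, 3 and 3, 1 and 1, and 2 and 0 of 6 in the 4 cell types, with 0 depleted in mESC also at an unadjusted edgeR p under 0.05 and by DESeq2.

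Members enriched in P-bodies had fewer G and C than depleted ones in each cell type. In HEK293T the median share of G or C at last codon positions was 42.0% in the 32 enriched members, 61.6% in the 20 not called and 75.2% in the 25 depleted. The same medians were 39.0%, 70.4% and 78.5% in liver bud progenitors, 41.9%, 61.6% and 73.25% in neurons, and 46.8%, 65.2% and 69.85% in mESC. In the 3' untranslated region the median GC content of enriched and depleted members was 34.05% and 55.2% in HEK293T, 34.1% and 58.2% in liver bud progenitors, 34.1% and 55.8% in neurons, and 37.4% and 51.6% in mESC.

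Across members, the Spearman correlation of the log2 change with last-position GC over the 4 cell types, in the order used so far, was -0.62 (77 members), -0.76 (86), -0.51 (89) and -0.72 (81). Over all genes of at least 1 CPM it was -0.51, -0.57, -0.49 and -0.52. With the GC content of the 3' untranslated region the values were -0.72, -0.79, -0.62 and -0.70 in members against -0.52, -0.56, -0.49 and -0.51 in all genes. Transcript length was related more weakly, with 0.16, 0.15, 0.03 and 0.17 in members against 0.329, -0.0975, 0.185 and 0.164 in all genes. The mean level was related to the change of members in HEK293T, liver bud progenitors and mESC (0.58, 0.59 and 0.52) and not in neurons (0.02). Over all genes, in the order used so far, it was 0.331, 0.283, -0.0382 and 0.343. The mean level takes in the P-body libraries, which also enter the change. These correlations run across genes that share the same libraries, are a description without a test, and rest on the longest annotated transcript of each gene, since the files name no transcripts. GC content moved together with the change in all 4 cell types, and level in HEK293T, liver bud progenitors and mESC. Their part in the change was not tested.

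**Figure D3:**
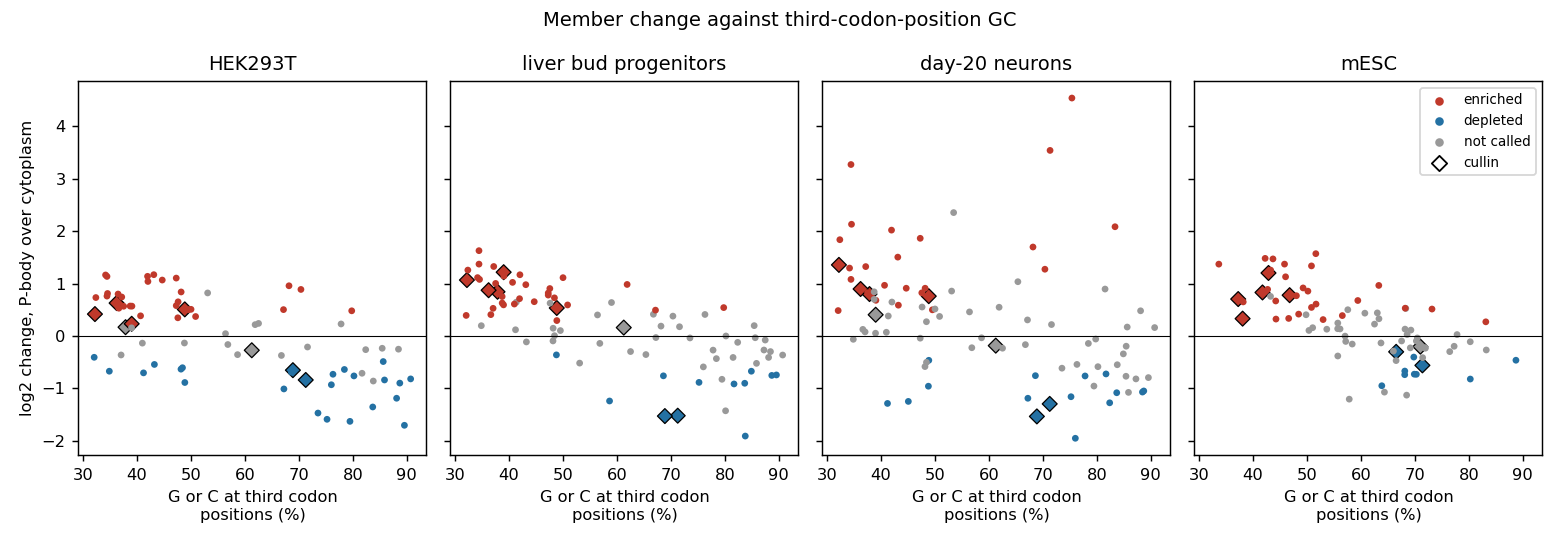
Log2 change from cytoplasm to P-body of each member of at least 1 CPM against the percent of G or C at last codon positions of its longest transcript, in the 4 cell types; diamonds are cullins and colours are calls. Enriched members lie mostly to the left and depleted members to the right, with enriched medians of 39.0% to 46.8% and depleted medians of 69.85% to 78.5%.

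Liver bud progenitors and neurons shared a parent line and library kind, so that the difference of their P-body changes was tested as an interaction over their 8 libraries. Of 91 members of at least 1 CPM, 8 had a higher change in neurons, where 12.3% of all genes did, and 10 a higher change in liver bud progenitors, where 12.5% of all genes did. With scaling by library size alone, which moved all genes by 0.36, the counts were 14 and 1. They were 4 and 3 without either liver bud P-body library, 4 and 5 or 6 and 3 without the first or second liver bud cytoplasm library, 14 and 18 or 7 and 21 without the first or second neuron P-body library, and 4 and 9 or 4 and 7 without the first or second neuron cytoplasm library. Of the 18 calls, 7 (CUL4B, FBXL20, FBXO5, FBXO7, FBXO34, FBXW11 and KLHL8) passed whichever 1 library was left out. Under scaling by library size alone, CUL4B kept its call (adjusted p = 0.0366), and those of FBXO7 (adjusted p = 0.121), FBXW11 (adjusted p = 0.0501), FBXW8 (adjusted p = 0.0531) and KLHL42 (adjusted p = 0.349) ended. The members with a higher change in liver bud progenitors numbered 6 with DESeq2 and 5 with edgeR's filterByExpr as the filter.

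FBXO5 led the members with a higher change in neurons, with a difference of 1.64 ± 0.16 on the log2 scale (adjusted p = 5.21e-06). Scaled over the 8 libraries, its cytoplasm level was 58.1 and 55.3 CPM in liver bud progenitors and 8.28 and 9.27 CPM in neurons, and its P-body level was 182 and 171 CPM against 86.1 and 84.1 CPM. Both levels were thus lower in neurons, without overlap. FBXO34 followed with 1.08 ± 0.21 (adjusted p = 0.00202), from 29.8 and 26.1 CPM in cytoplasm to 45.5 and 51.0 CPM in P-bodies of liver bud progenitors and from 16.9 and 15.3 CPM to 57.2 and 60.4 CPM in neurons. KLHL8 had 1.05 ± 0.24 (adjusted p = 0.00611), with cytoplasm levels of 21.2 and 20.3 CPM in liver bud progenitors against 10.3 and 9.47 CPM in neurons and P-body levels of 43.9 and 44.6 CPM against 47.7 and 39.5 CPM. FBXL20 had 0.76 ± 0.14 (adjusted p = 0.00161). Its cytoplasm levels were 72.6 and 74.1 CPM and 67.6 and 71.9 CPM, and its P-body levels were 85.4 and 78.5 CPM and 134 and 129 CPM. The cell types thus lay far apart in P-bodies and close together in cytoplasm under TMM scaling. With scaling by library size alone, FBXL20 passed the test as higher in liver bud cytoplasm (-0.33, adjusted p = 0.012). FBXO38 had 0.52 ± 0.14 (adjusted p = 0.0215).

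In the other direction CUL4B had the smallest p (-0.82 ± 0.13, adjusted p = 0.000512). It went from 138 and 127 CPM in cytoplasm to 317 and 303 CPM in P-bodies of liver bud progenitors and from 43.4 and 47.2 CPM to 62.6 and 57.8 CPM in neurons. FBXW11 had -0.87 ± 0.17 (adjusted p = 0.00224), from 63.8 and 67.5 CPM to 119 and 115 CPM in liver bud progenitors and from 65.9 and 72.1 CPM to 75.3 and 59.4 CPM in neurons, where the fractions overlapped. FBXO7, a gene of familial parkinsonism, had -0.77 ± 0.17 (adjusted p = 0.00462). It rose from 65.8 and 60.7 CPM to 77.9 and 78.3 CPM in liver bud progenitors and fell from 52.6 and 48.9 CPM to 36.1 and 37.7 CPM in neurons. FBXW8 had -1.17 ± 0.29 (adjusted p = 0.0112) and KLHL42 -0.60 ± 0.16 (adjusted p = 0.0183). Both of these calls were lost on leaving out any of 3 libraries, and that of FBXO38 on leaving out any of 6. The differences of the other 7 cullins, between -0.35 (CUL4A) and 0.29 (CUL5), did not pass the test.

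**Figure D4:**
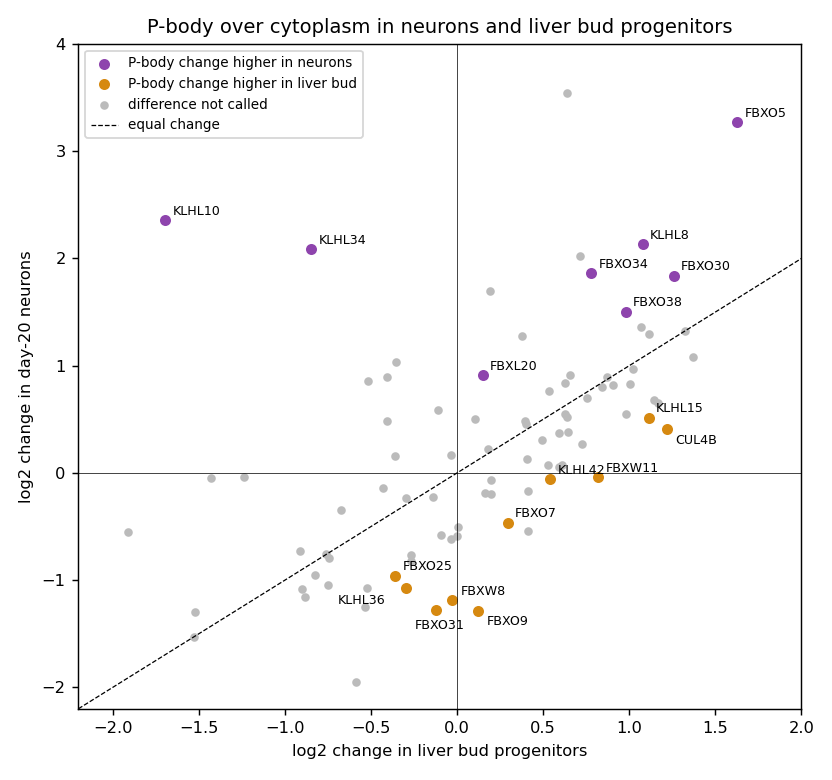
Log2 change from cytoplasm to P-body in neurons against that in liver bud progenitors, each point a member of at least 1 CPM; coloured points are members whose changes differed at an adjusted p under 0.05. FBXO5 lies far above equality, at 3.27 against 1.63, and CUL4B below it, at 0.41 against 1.22.

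**Figure D5:**
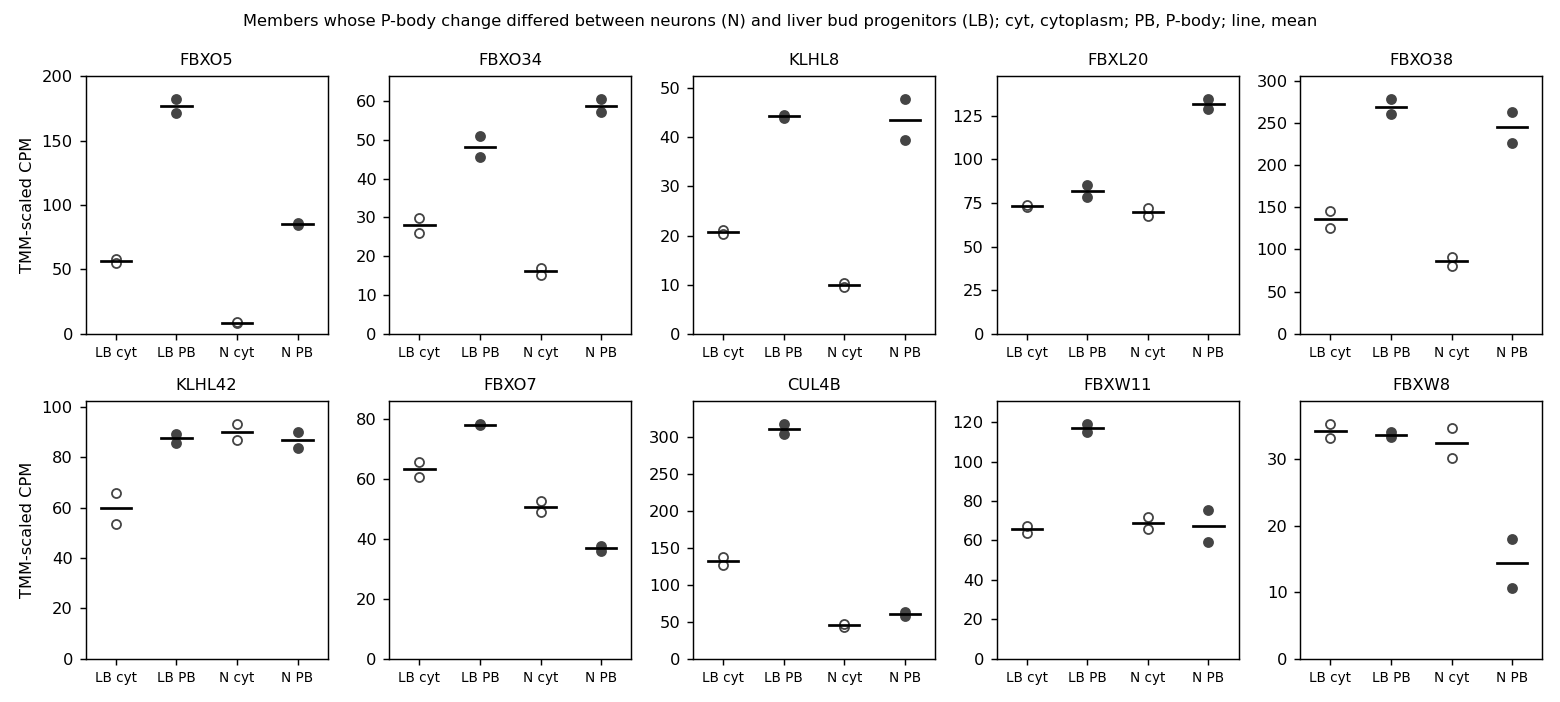
TMM-scaled CPM, scaled over the 8 libraries, of the 10 named members whose P-body change differed between liver bud progenitors and neurons; open points are cytoplasm (cyt) and filled points P-body (PB) libraries, and lines are means of 2 libraries. The P-body points of FBXL20 are higher in neurons, and those of FBXW11 lie above its cytoplasm points in liver bud progenitors alone.

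The level of the members in cytoplasm was compared between the same cell types. Of 89 members of at least 1 CPM, 31 were higher in neurons, where 36.9% of all genes were, and 26 higher in liver bud progenitors, where 34.5% of all genes were. With scaling by library size alone, which moved all genes by -0.38, the counts were 21 and 40. KLHL1 was listed at 4 and 3 counts in liver bud progenitors, near the floor of 3, and passed the filter through the neurons alone. It was at 0.546 and 0.355 CPM in liver bud progenitors and 86.6 and 87.0 CPM in neurons (7.57 ± 0.25, adjusted p = 9.66e-41). KLHL29 was 3.14 and 2.48 CPM against 30.6 and 26.1 CPM (3.34 ± 0.23) and KLHL13 11.6 and 7.69 CPM against 50.1 and 51.5 CPM (2.41 ± 0.17). FBXL16, a brain F-box protein, was 1.501 and 1.42 CPM against 20.1 and 16.6 CPM (3.64 ± 0.30) and FBXO10 29.7 and 29.3 CPM against 92.3 and 79.8 CPM (1.54 ± 0.12).

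Higher in the cytoplasm of liver bud progenitors was KLHL15, at 143 and 134 CPM against 34.7 and 38.2 CPM in neurons (-1.93 ± 0.11, adjusted p = 4.36e-27). FBXO5 was 55.7 and 53.5 CPM against 8.66 and 9.82 CPM (-2.56 ± 0.16), FBXO48 changed by -2.05 ± 0.17 and FBXO28 by -1.75 ± 0.17. Among the cullins, CUL4B (-1.42 ± 0.10), CUL5 (-1.33 ± 0.15), CUL4A (-1.06 ± 0.14), CUL2 (-0.61 ± 0.14) and CUL3 (-0.24 ± 0.10) were higher in liver bud progenitors. CUL9 (1.59 ± 0.14) and CUL7 (1.03 ± 0.10), the 2 cullins depleted from P-bodies in both cell types, were higher in neurons. CUL1 did not pass the test (-0.15 ± 0.12, adjusted p = 0.343). The CUL3 call was lost on leaving out any of 3 libraries.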

How the data were processed

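RNA-seq of P-body and cytoplasm fractions was analysed from the counts per gene that the authors deposited, 1 table for the 12 human libraries (hg38) and 1 for the mouse libraries (mm10). The authors described salmon within nf-core for total RNA libraries and hisat2 with featureCounts for Smart-seq libraries, and removed genes of few reads. Which of these made the polyA columns, and whether counting used strand, is not given in the sources used here. Tables of the authors' own comparisons hold fold changes and p-values and were not used.

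Genes with a count in the compared libraries were fitted with edgeR 4.0.16 (R 4.3.3, TMM, quasi-likelihood test, Benjamini-Hochberg over all genes). Members were counted at a mean of at least 1 CPM and an adjusted p under 0.05. Alternatives were DESeq2 1.42.0, other scalings and filters, a replicate block, and leaving out each library. The code was tested on simulated data. Depth was 6368953 to 17972284 counts. Members and lists were chosen with earlier results of these data known. Named were all cullins, 17 fixed members, 10 fixed pathway genes, members called alike in all 4 cell types, and, at 5 CPM or more, the 6 called members of smallest p per direction without overlap of the fractions (5 for neurons against liver bud progenitors); UBA3, UBE2M, DCUN1D1 and COPS2 were added after their values were seen. Transcript features came from GENCODE 44 (hg38) and M21 (mm10), matched by symbol for 104 of 104 human and 94 of 95 mouse members. 1 member and 1 sequence are not reported here.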

Additional observations from a re-analysis of the deposited data

Results flagged for a closer look

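The difference between neurons and liver bud progenitors in the log2 change from cytoplasm to P-body was tested directly for every gene (interaction, 8 libraries). Of 91 members, 8 had a higher change in neurons (12.3% of all genes) and 10 in liver bud progenitors (12.5% of all genes). The members given here are the 5 called ones of smallest p per direction at 5 CPM or more, so that their passing was set by the choice. The difference was 1.64 for FBXO5, 1.08 for FBXO34, 1.05 for KLHL8, 0.76 for FBXL20 and 0.52 for FBXO38, with the higher change in neurons. It was -1.17 for FBXW8, -0.87 for FBXW11, -0.82 for CUL4B, -0.77 for FBXO7 and -0.60 for KLHL42, with the higher change in liver bud progenitors. With scaling by library size alone the members with a higher change in liver bud progenitors numbered 1.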

How the results depend on the processing

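With DESeq2, 14 members were depleted in HEK293T, 6 in mESC, and 6 had a higher change in liver bud progenitors than in neurons. Fitting all 12 human libraries together gave 11 depleted members in HEK293T and 62 depleted genes of the other pathway lists in neurons. Scaling by library size alone gave 19 enriched and 26 depleted members in mESC, 31 and 62 genes of the other lists there, 14 members with a higher change in neurons and 1 in the progenitors, and 40 members higher in liver bud cytoplasm. A filter on low counts (filterByExpr) left 5 with a higher change in liver bud progenitors. The cause of these shifts was not tested.

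Leaving out 1 library at a time, with the lone library of a group assumed to vary like the others, gave 28 to 33 enriched and 19 to 24 depleted members in HEK293T, 31 to 35 and 10 to 12 in liver bud progenitors, 17 to 32 and 9 to 23 in neurons, and 26 to 31 and 6 to 9 in mESC. It gave 4 to 14 and 3 to 21 for the difference of changes, 26 to 31 and 21 to 26 for cytoplasm, and 22 to 58 depleted genes of the other lists in neurons.

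The correlation of the change with transcript length was 0.0422 in HEK293T, 0.0135 in liver bud progenitors and -0.0813 in neurons on the transcript with the longest coding part, and 0.109, 0.296, 0.0945 and 0.0798 (mESC) without a CPM minimum. That with 3' untranslated GC was -0.748 in liver bud progenitors and -0.598 in neurons on the former, and -0.586, -0.489 and -0.503 (mESC) without a minimum. Without a minimum, that with GC was -0.698, -0.464 and -0.588, and that with last-position GC -0.632 in liver bud progenitors and -0.556 in mESC.

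With scaling by library size alone the direction turned for Cul4b (-0.071), Fbxl20 (-0.27), Fbxo45 (-0.27), Fbxw11 (-0.27), Klhl13 (-0.067), Klhl2 (-0.013), Klhl42 (-0.13) and Klhl9 (-0.079) in mESC and for FBXL20 (-0.33) in cytoplasm. Of these, Fbxl20, Fbxo45 and Fbxw11 passed the test as depleted in mESC, and FBXL20 as higher in liver bud cytoplasm. Of 2433 alternatives for single genes, 2282 kept direction and call, 104 lost the call, 38 gained it and 9 turned.

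Replicate numbers were not stated to mark shared cultures, and deviations of libraries with the same number correlated at -0.104, 0.0634, 0.142 and -0.0329 in HEK293T, liver bud progenitors, neurons and mESC. With the replicate block the counts were 32 enriched and 26 depleted members, 35 and 12, 30 and 19, and 32 and 10, and 8 and 14 for the difference of changes and 30 and 23 for cytoplasm. Crossing the numbers in HEK293T gave 32 and 26.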
